A study of Mus musculus with 6 samples.

Results

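The 10 genes described here encode enzymes that break down lysophospholipids and glycerophosphocholine outside the lysosome, with *Lyplal1* included as a relative of such enzymes. They were taken by gene symbol as a list chosen for their function, and all 10 symbols were found among the 54532 genes of the count table. RNA-Seq of whole liver was available for 6 mice, 3 labelled SPNS1 KO and 3 labelled WT, with 1 library per mouse. The knockout animals (g*Spns1*-cKO) carried *Spns1* alleles with loxP sites around exon 3 together with Rosa26Cre-ERT2, a ubiquitously driven and tamoxifen-dependent Cre. Cre was induced with 50 mg/kg tamoxifen on postnatal days 11, 13 and 15, so deletion was not restricted to hepatocytes. Floxed littermates served as controls by the methods, where the labels say WT. The methods give a C57BL/6 background for all animals. Whether control mice received tamoxifen and the age at which these livers were collected are not given in the sources used here.

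A glycerophospholipid that loses 1 of its acyl chains becomes a lysophospholipid, such as lysophosphatidylcholine (LPC). Lysophospholipases remove the remaining chain and leave a water-soluble glycerophosphodiester such as glycerophosphocholine, which a glycerophosphodiesterase then splits into glycerol-3-phosphate and choline. A different cut, by enzymes of the lysophospholipase D kind, removes the head group instead and gives lysophosphatidic acid, a signaling lipid. Liver handles large amounts of LPC and glycerophosphocholine. SPNS1 is a lysosomal membrane protein that moves lysophospholipids out of the lysosome, to where these enzymes can reach them.

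The libraries held between 30350002 and 35295611 counts, and 15449 genes had enough reads to be tested. Levels are given as CPM, the counts divided by the library size in units of 1e+06 after scaling by the trimmed mean of M-values (TMM). The TMM factor lay between 0.834 and 0.873 in control livers, against between 1.16 and 1.18 in livers of g*Spns1*-cKO mice, so the scaling matters for small differences. With library size alone, the median gene moved from a log2 fold change of 0.014 to 0.46, so each fold change is to be read relative to the median gene. *Spns1* itself had 1008, 1562 and 875 counts in control livers against 642, 1175 and 698 in livers of g*Spns1*-cKO mice, with a log2 fold change of -0.87 (SE, the standard error, 0.25, edgeR adjusted p = 0.0300). This call was lost without control replicate 2 (adjusted p = 0.0785), g*Spns1*-cKO replicate 1 (0.0910) or g*Spns1*-cKO replicate 3 (0.0830) in the same edgeR test. It was also lost with library size alone (log2 fold change -0.43, edgeR adjusted p = 0.213) and with upper-quartile scaling (-0.74, adjusted p = 0.0635). Only exon 3 is removed, and reads of the other exons still count toward the gene, so these counts do not measure the deletion. By western blot, the paper reports a reduced SPNS1 protein band in livers of g*Spns1*-cKO mice. Hepatocyte markers were abundant in every library, between 61781 and 112712 CPM summed over 8 genes. *Xist* had at most 5 counts and *Ddx3y* at least 1731 in every library, so the groups did not differ in sex by these markers.

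Of the 10 genes, 5 passed as lower and 1 as higher in the knockout (adjusted p under 0.05). With TMM scaling, *Pnpla7*, *Gpcpd1* and *Abhd6* fell to less than their control levels divided by 2, and *Lypla1* and *Lypla2* fell less. *Gdpd1* rose 5.63-fold from a very low level. *Lyplal1*, *Pnpla6*, *Abhd12* and *Gdpd3* did not pass. The size of the changes depended on the scaling. With library size alone, *Pnpla7*, *Gpcpd1* and *Abhd6* had log2 fold changes of -0.64, -0.85 and -0.86, each a fall of less than 2-fold. In whole liver, less RNA per cell cannot be told apart from fewer cells of a type. Over all genes tested, 20.5% were called lower and 21.3% higher, 41.8% in either direction, so the 6 calls among 10 genes stand against a background in which such calls were common. All 10 genes passed the filter on low counts. Their median log2 fold change was -0.34 (range -1.31 to 2.49), compared with 0.014 for all genes tested. P-values are from edgeR's quasi-likelihood test, adjusted over all 15449 genes.

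**Figure D1:**
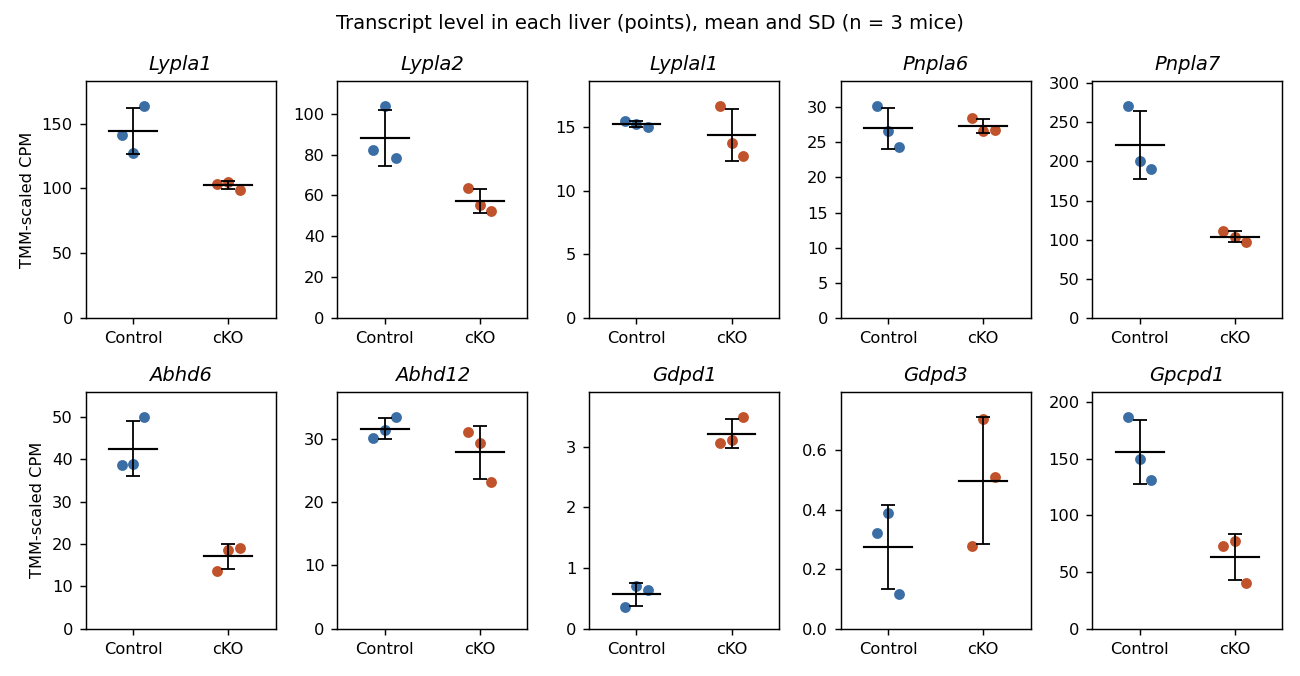
Transcript level of the 10 genes in TMM-scaled CPM on the vertical axis, 1 point per liver, with control livers in blue and g*Spns1*-cKO livers in orange. Lines and bars give the mean and SD of 3 mice; the groups are apart for *Lypla1*, *Lypla2*, *Pnpla7*, *Abhd6*, *Gdpd1* and *Gpcpd1* and overlap for the other 4 genes.

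Promoter sequence is shown for the genes of this list that changed more than 2-fold under TMM scaling. They also had an entry in the RefSeq promoter set (build GRCm38.p6). The aim was to show the annotated start regions of the most changed genes. Of the 10 genes, 7 had an entry, with 10 windows in all, and the one shown for *Abhd6* is the lowest in coordinate of its windows. Each window runs from 250 bases before to 50 bases after the start annotated in that promoter set, 5′ to 3′ on the strand of the gene. These starts can differ from the gene positions given below. The *Gdpd1* window lies wholly outside the span of 87033867 to 87074062 given for that gene. Capitals mark the E-box (CACGTG) and the CCAAT box (CCAAT). The DR1 motif, AGGTCA followed by 1 base and AGGTCA again, was also searched, and all motifs were searched on both strands and do not overlap each other in these windows. The *Pnpla7* window is chr2:24975783-24976082 on the plus strand, the *Abhd6* window is chr14:8002638-8002937 on the plus strand, and the *Gdpd1* window is chr11:87074088-87074387 on the minus strand.
Pnpla7: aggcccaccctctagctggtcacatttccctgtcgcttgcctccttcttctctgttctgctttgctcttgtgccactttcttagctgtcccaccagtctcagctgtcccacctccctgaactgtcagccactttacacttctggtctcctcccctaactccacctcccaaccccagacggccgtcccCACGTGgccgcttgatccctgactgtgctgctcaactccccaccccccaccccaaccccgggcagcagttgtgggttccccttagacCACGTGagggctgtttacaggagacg
Abhd6: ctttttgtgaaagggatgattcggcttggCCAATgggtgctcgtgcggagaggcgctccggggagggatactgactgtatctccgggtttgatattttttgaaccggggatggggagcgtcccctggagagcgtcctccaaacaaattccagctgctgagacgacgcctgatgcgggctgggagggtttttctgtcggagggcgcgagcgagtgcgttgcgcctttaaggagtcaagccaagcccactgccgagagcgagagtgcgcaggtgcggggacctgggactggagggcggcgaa
Gdpd1: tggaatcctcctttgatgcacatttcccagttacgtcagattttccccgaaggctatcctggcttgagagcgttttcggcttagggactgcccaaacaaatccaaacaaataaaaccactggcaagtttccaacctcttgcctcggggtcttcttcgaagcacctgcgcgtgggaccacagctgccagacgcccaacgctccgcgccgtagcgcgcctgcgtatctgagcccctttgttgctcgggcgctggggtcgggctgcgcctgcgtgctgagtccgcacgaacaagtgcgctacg
The *Pnpla7* window held the E-box at 2 places, beginning 63 bases before the start and at base 25 after it, and it was the only one of the 7 genes with this motif. The E-box was present in 7.15% of the 32851 promoter windows of the same length. The CCAAT box, present in 37.41% of them, began 221 bases before the start in *Abhd6* and was also found in 1 window of *Pnpla6*. DR1 was in no window of these genes and in 0.04% of all windows. The *Gdpd1* window held none of the motifs searched. It had 25 CpG dinucleotides and the *Abhd6* window 24, compared with 8 in *Pnpla7* and a median of 7 over all windows. These matches describe letters only.

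The patatin-like enzymes PNPLA6 and PNPLA7 are related membrane proteins of the endoplasmic reticulum that take acyl chains from phosphatidylcholine or LPC and yield glycerophosphocholine. *Pnpla7* (ENSMUSG00000036833) is located at 24976033 to 25054057 on chromosome 2, plus strand (all gene positions are on GRCm38). Its level was 270, 201 and 191 CPM in control livers against 112, 104 and 97.0 CPM in livers of g*Spns1*-cKO mice. The lowest control liver was well above the highest knockout liver. The log2 fold change was -1.08 (SE 0.15, edgeR adjusted p = 0.000353), a level 2.12-fold lower. *Pnpla6* (ENSMUSG00000004565), known as neuropathy target esterase, lies on the plus strand of chromosome 8 from 3515384 to 3544267. It had 30.1, 26.6 and 24.3 CPM in control livers against 28.4, 26.6 and 26.8 CPM in livers of g*Spns1*-cKO mice. The groups overlapped, and the log2 fold change was 0.01 (SE 0.11, edgeR adjusted p = 0.933). With library size alone *Pnpla6* passed as higher, at 0.46 (adjusted p = 0.00801), which is the shift of the median gene under that scaling. Neither gene shared exon bases with another annotated gene.

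The count ratio of *Pnpla6* to *Pnpla7* within a liver does not depend on the scaling of the library. It was 0.111, 0.132 and 0.127 in control livers against 0.254, 0.256 and 0.276 in livers of g*Spns1*-cKO mice. All 3 knockout livers were above all 3 control livers, and the ratio was 2.13-fold higher. The difference in log2 ratio was 1.09, with SDs of 0.13 in control and 0.066 in livers of g*Spns1*-cKO mice. A two-sided exact permutation test gave p = 0.1, the smallest that 3 mice against 3 allow, and 0.2 after adjustment over the 4 pairs compared.

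GPCPD1 (also called GDE5) splits glycerophosphocholine into glycerol-3-phosphate and choline, the step after PNPLA7. *Gpcpd1* (ENSMUSG00000027346) lies on the minus strand of chromosome 2 from 132529082 to 132587729. It had 187, 150.0 and 131 CPM in control livers against 72.7, 77.8 and 40.1 CPM in livers of g*Spns1*-cKO mice. The groups did not overlap, but the knockout livers differed among themselves, with replicate 3 the lowest of all 6. The log2 fold change was -1.30 (SE 0.26, edgeR adjusted p = 0.00642), a level 2.45-fold lower, and it stayed between -1.47 and -1.05 when any mouse was omitted. The coefficient of variation of *Gpcpd1* in g*Spns1*-cKO livers was 32.2%, compared with a median of 13.1% over all genes tested. *Pnpla7* varied by 7.07% in the same livers.

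GDPD1 (GDE4) and GDPD3 (GDE7) belong to the same phosphodiesterase family by sequence, and act on lysophospholipids as lysophospholipase D enzymes that release lysophosphatidic acid. *Gdpd1* (ENSMUSG00000061666) lies on the minus strand of chromosome 11 from 87033867 to 87074062. It had 10, 22 and 16 counts in control livers against 110, 119 and 137 counts in livers of g*Spns1*-cKO mice, which is 0.356, 0.714 and 0.632 CPM against 3.06, 3.10 and 3.49 CPM. Every knockout liver was above every control liver and the knockout values were close together. The log2 fold change was 2.49 (SE 0.31, edgeR adjusted p = 0.000193) and it stayed between 2.23 and 2.70 when any mouse was omitted. *Gdpd3* (ENSMUSG00000030703) lies on the plus strand of chromosome 7 from 126766334 to 126775649. It had 9, 12 and 3 counts in control livers against 10, 27 and 20 in livers of g*Spns1*-cKO mice. The groups overlapped, and the log2 fold change of 0.82 (SE 0.56, edgeR adjusted p = 0.263) leaves either direction possible at this depth. *Gdpd3* shares 298 exon bases with *Gm9967* on the opposite strand, which had between 3 and 18 counts, and since the strand setting of the counting is not given, reads in the overlap cannot be told apart. The count ratio of *Gdpd1* to *Gdpd3* was 1.11, 1.83 and 5.33 in control livers against 11, 4.41 and 6.85 in livers of g*Spns1*-cKO mice, which overlapped (two-sided exact permutation p = 0.2, adjusted p = 0.267).

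ABHD6 and ABHD12 are membrane-bound α/β-hydrolases. ABHD6 hydrolyzes monoacylglycerol and lysophospholipids on the cytosolic face, and ABHD12 is the main lipase of lysophosphatidylserine in brain. *Abhd6* (ENSMUSG00000025277) lies on the plus strand of chromosome 14 from 8002902 to 8056763. It had 38.7, 38.8 and 49.9 CPM in control livers against 13.7, 18.7 and 19.0 CPM in livers of g*Spns1*-cKO mice. The groups were far apart, and the log2 fold change was -1.31 (SE 0.16, edgeR adjusted p = 0.000162), a level 2.48-fold lower. *Abhd12* (ENSMUSG00000032046) lies on the minus strand of chromosome 2 from 150832493 to 150904741. It had 30.1, 31.3 and 33.4 CPM in control livers against 31.0, 29.3 and 23.1 CPM in livers of g*Spns1*-cKO mice. These overlapped, with a log2 fold change of -0.18 (SE 0.13, edgeR adjusted p = 0.271); library size alone turned the sign, to 0.26 (adjusted p = 0.101). The count ratio of *Abhd6* to *Abhd12* was 1.29, 1.24 and 1.49 in control livers against 0.441, 0.639 and 0.821 in livers of g*Spns1*-cKO mice. *Abhd6* was thus counted more often than *Abhd12* in each control liver and less often in each knockout liver. The log2 ratio differed by -1.12 (two-sided exact permutation p = 0.1, adjusted p = 0.2 over 4 pairs).

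**Figure D2:**
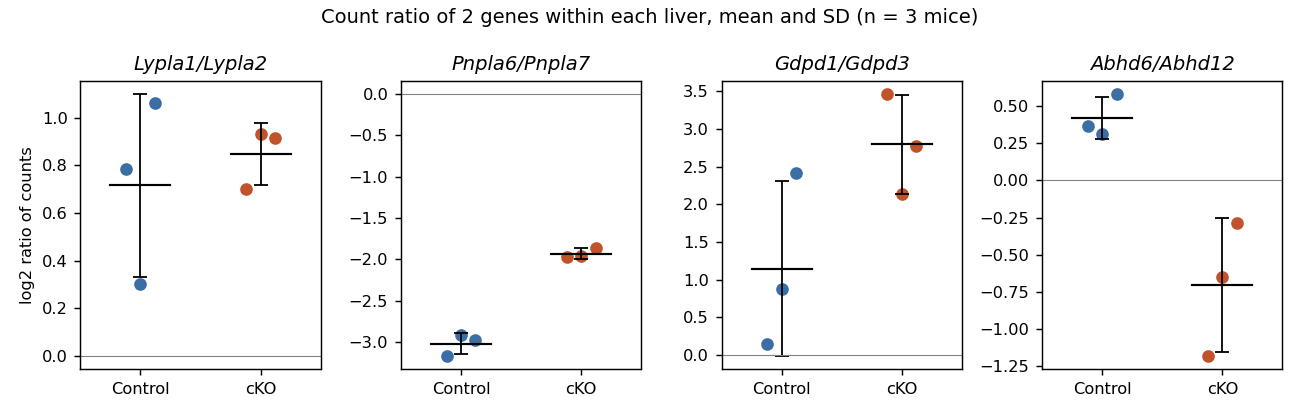
Log2 ratio of the counts of 2 genes within each liver for the 4 gene pairs, control livers in blue and g*Spns1*-cKO livers in orange, with the mean and SD of 3 mice. The groups are apart for *Pnpla6*/*Pnpla7* (difference 1.09) and *Abhd6*/*Abhd12* (difference -1.12) and overlap for *Lypla1*/*Lypla2* and *Gdpd1*/*Gdpd3*.

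LYPLA1 and LYPLA2 are small soluble hydrolases, also known as acyl-protein thioesterases, that remove palmitate from proteins and can cleave lysophospholipids. LYPLAL1 is a relative of the same fold. *Lypla1* (ENSMUSG00000025903) lies on the plus strand of chromosome 1 from 4807788 to 4848410. It had 141, 128 and 163 CPM in control livers against 104, 105 and 98.9 CPM in livers of g*Spns1*-cKO mice. The knockout livers were below all control livers and within a narrow range, with a log2 fold change of -0.49 (SE 0.12, edgeR adjusted p = 0.00802). *Lypla2* (ENSMUSG00000028670) lies on the minus strand of chromosome 4 from 135968224 to 135972626. It had 82.2, 103 and 78.3 CPM in control livers against 63.9, 55.2 and 52.5 CPM in livers of g*Spns1*-cKO mice. These groups were also apart, with a log2 fold change of -0.62 (SE 0.13, edgeR adjusted p = 0.00415).

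Both *Lypla* calls depended on the scaling. With library size alone, *Lypla1* was at -0.04 (edgeR adjusted p = 0.757) and *Lypla2* at -0.18 (adjusted p = 0.282). Relative to the median gene these were -0.50 and -0.64, near the TMM values by construction, so they are no separate check. The raw counts of *Lypla1* covered 3933 to 4131 in control livers against 3731 to 4036 in livers of g*Spns1*-cKO mice. The count ratio of *Lypla1* to *Lypla2* was 1.72, 1.23 and 2.09 in control livers against 1.62, 1.91 and 1.89 in livers of g*Spns1*-cKO mice. It overlapped between groups, with a difference in log2 ratio of 0.13 against SDs of 0.38 and 0.13 (two-sided exact permutation p = 0.7, adjusted p = 0.7). *Lyplal1* (ENSMUSG00000039246) lies on the minus strand of chromosome 1 from 186087731 to 186117310. It had 15.44, 15.23 and 15.02 CPM in control livers against 16.6, 13.7 and 12.7 CPM in livers of g*Spns1*-cKO mice. These overlapped, with a log2 fold change of -0.09 (SE 0.13, edgeR adjusted p = 0.625) that turned to 0.36 with library size alone (adjusted p = 0.0421) and to 0.04 with upper-quartile scaling (adjusted p = 0.821). *Lypla1* shares 629 exon bases on its own strand with *Gm37988*, a gene with no counts in any library.

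**Figure D3:**
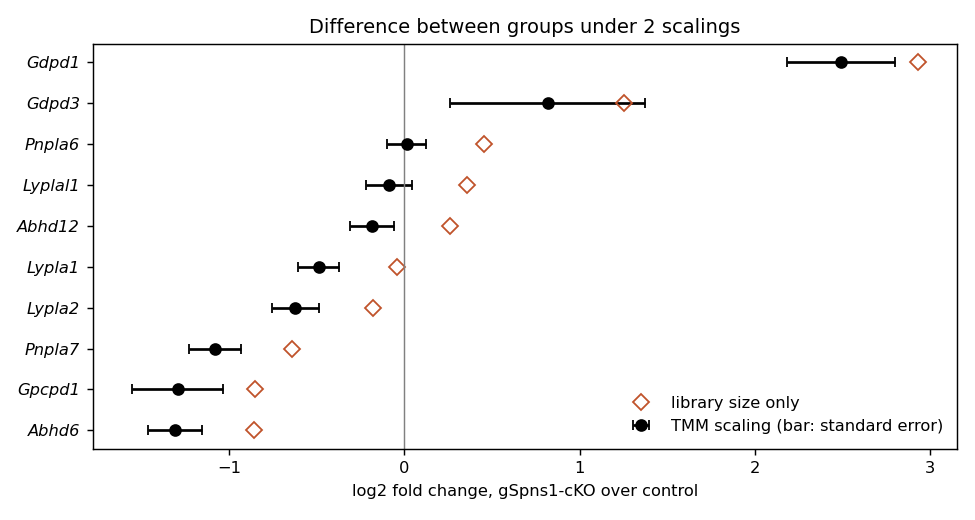
Log2 fold change of g*Spns1*-cKO over control livers for the 10 genes. Filled circles with standard error bars are TMM-scaled values and open diamonds are values with library size alone, which lie further to the right for every gene; *Pnpla7*, *Gpcpd1* and *Abhd6* stay below 0 and past the threshold under both, whereas *Lypla1* and *Lypla2* pass under TMM only.

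Under library size alone, 3 of the 10 genes were lower (*Pnpla7*, *Gpcpd1* and *Abhd6*) and 3 were higher (*Gdpd1*, *Lyplal1* and *Pnpla6*), where 6.28% of all genes were called lower and 47.2% higher. The 3 that were lower and *Gdpd1* were called in the same direction under each normalization and test tried and with each mouse left out. For 6 genes the groups did not overlap in scaled CPM, 1 higher and 5 lower in the knockout, where 54.1% of all genes did not overlap, 27.1% higher and 26.9% lower. A share of 6 in 10 is near this background.

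Levels of different genes were compared as CPM per kilobase of the deposited gene length. That length equals the merged exons of every annotated transcript, so a gene with long rare transcripts is given too low a level. In control livers *Lypla2* was highest, at 42.8 ± 6.60 CPM per kb (SD, n = 3), above 91.9% of the genes tested. *Pnpla7* followed at 29.4 ± 5.76, *Gpcpd1* at 21.4 ± 3.86, *Lypla1* at 20.2 ± 2.51 and *Abhd6* at 18.0 ± 2.72 CPM per kb, and from *Pnpla7* to *Abhd6* the values of neighbors overlapped. *Abhd12* was at 11.2 ± 0.591, *Lyplal1* at 9.65 ± 0.133 and *Pnpla6* at 2.78 ± 0.301 CPM per kb, each apart from its neighbors. *Gdpd1* and *Gdpd3* were lowest, at 0.243 ± 0.0805 and 0.126 ± 0.0644 CPM per kb, above 14.4% and 8.43% of the genes tested, and overlapped each other.

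The order differed in g*Spns1*-cKO livers. *Lypla2* stayed highest at 27.8 ± 2.91 CPM per kb. *Gpcpd1* stood at rank 6 with 8.72 ± 2.80 and *Abhd6* at rank 7 with 7.25 ± 1.26 CPM per kb, from ranks 3 and 5 in control livers, below *Abhd12* (9.86 ± 1.47) and *Lyplal1* (9.09 ± 1.28). The levels from *Abhd12* down to *Abhd6* overlapped from neighbor to neighbor. *Gdpd1* rose to 1.38 ± 0.101 CPM per kb, apart from *Gdpd3* at 0.227 ± 0.0975. Even so, *Gdpd1* remained below every gene of the list other than *Gdpd3*. Summed over the 10 genes with TMM scaling, the level was 162, 156 and 150 CPM per kb in control livers against 102, 97.5 and 86.6 CPM per kb in g*Spns1*-cKO livers. *Gdpd1* made up at most 1.72% of that sum in any liver. The TMM factors were lower in control livers, which raises their scaled levels, and the sum was not computed with library size alone.

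**Figure D4:**
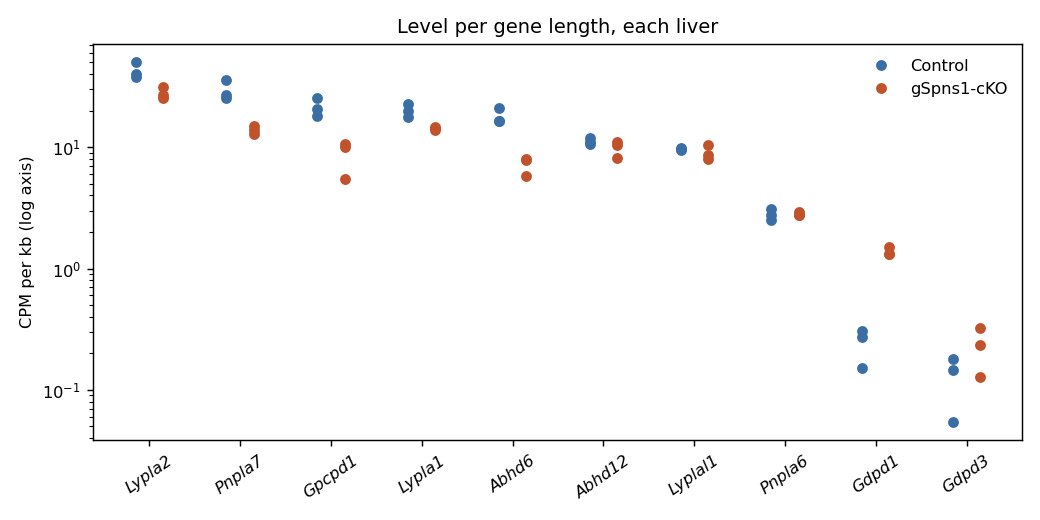
Level of each gene in CPM per kilobase on a log axis, 1 point per liver, ordered by the control mean. *Lypla2* leads in both groups, *Gdpd1* and *Gdpd3* lie far below the other genes in control livers, and the g*Spns1*-cKO points (orange) of *Gdpd1* lie above its control points (blue).

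Whole liver holds several cell types. Hepatocyte markers summed to between 99478 and 112712 CPM in control against between 61781 and 71181 CPM in livers of g*Spns1*-cKO mice, with 4 of 8 passing as lower and a median log2 fold change of -0.46. They did not go one way: the log2 fold changes ran from -0.83 for *Asgr1* to 0.36 for *Cps1* and 0.52 for *Cyp3a11*, and every knockout liver was above every control liver for *Cps1* and *Cyp3a11*, which were named after their values were seen. Neither passed in edgeR with TMM (adjusted p = 0.1004 and 0.0518). Both passed as higher with library size alone, upper-quartile scaling and DESeq2, and *Cyp3a11* did with limma-voom. With library size alone, 1 hepatocyte marker was lower and 2 were higher, with a median of -0.02. Relative to the median gene this was -0.47, near the TMM median by construction. All 9 macrophage markers were higher, with a summed level of 138 to 205 CPM in control and 606 to 820 CPM in livers of g*Spns1*-cKO mice, and so were all 6 cholangiocyte markers, from between 44.4 and 62.9 to between 171 and 280 CPM. Of the stellate cell markers 5 of 7 were higher (176 to 206 against 460 to 529 CPM) and of the endothelial markers 5 of 6 (137 to 153 against 202 to 249.04). Neutrophil and lymphocyte markers were at low levels. Of 5 neutrophil markers 4 had enough reads to be tested and 3 were higher (3.06 to 5.52 against 9.15 to 15.1 CPM over all 5). Of the lymphocyte markers 1 of 6 was higher (2.45 to 3.09 against 4.96 to 6.23). No marker was at 0 in all livers of a group. This mixed hepatocyte list had a TMM median of -0.46. On the same scale, *Lypla1* was at -0.49, *Lypla2* at -0.62 and *Pnpla7*, *Gpcpd1* and *Abhd6* at -1.31 to -1.08. The other lists had medians of 2.21 (cholangiocyte), 2.14 (macrophage), 1.42 (neutrophil), 1.22 (stellate cell), 0.88 (endothelial cell) and 0.56 (lymphocyte), and *Gdpd1* was at 2.49. Which cell types express these genes cannot be read from whole liver. The part of these cell types in the changes of the 10 genes was not tested.

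The genes most like 2 members in pattern were found by Pearson correlation of log2 CPM over the 6 livers, as a description; these livers fall into 2 groups, so any gene that separates the groups in the same way scores high. For *Gdpd1*, which had the largest change, these were *Dok2* (r = 0.9992), *Mustn1* (0.9992) and *B4galt6* (0.9991). For *Lypla2*, the member with the highest level, they were *Usf1* (r = 0.9988), *Rbx1* (0.9987) and *Tsen34* (0.9967).

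Among 73 symbols of neighboring steps in the pathway, 72 were found in the table and the remaining symbol is a newer name of a gene already on the list. Of these, 59 could be tested, with 10 higher and 23 lower, where 21.3% of all genes tested were called higher and 20.5% lower. The counts for each list below are to be read beside the same shares. The median log2 fold change of the 59 genes was -0.19, compared with 0.014 for all genes. With library size alone, 25 of them were higher and 13 lower, where 47.2% of all genes were called higher and 6.28% lower. The other phosphodiesterases and lysophospholipase D enzymes (5 of 7 tested, median log2 fold change 0.68) were 2 higher and 1 lower. *Enpp2*, which encodes autotaxin, the secreted enzyme that makes lysophosphatidic acid from LPC, rose from 77.2 ± 9.70 to 129 ± 12.8 CPM, at 0.74 on the log2 scale (SE 0.13, edgeR adjusted p = 0.00134); it shares 345 exon bases with the antisense *Gm26684*. *Gdpd5*, a glycerophosphocholine phosphodiesterase, rose from 0.733 ± 0.0552 to 1.70 ± 0.178 CPM. *Gde1*, which acts on glycerophosphoinositol, passed as lower, going from 91.1 ± 17.2 to 56.2 ± 13.3 CPM (edgeR adjusted p = 0.0195). It did not pass with library size alone (log2 fold change -0.25, adjusted p = 0.312), with upper-quartile scaling (-0.56, 0.0525) or without control replicate 2 (0.0744), control replicate 3 (0.0606) or g*Spns1*-cKO replicate 3 (0.0627).

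Of the other patatin-like genes, 4 of 5 were tested, 2 of them lower (median log2 fold change -0.69). *Pnpla2*, the adipose triglyceride lipase, fell from 116 ± 8.44 to 62.7 ± 11.4 CPM, and *Pnpla8*, a calcium-independent phospholipase, from 140 ± 14.5 to 99.1 ± 7.96 CPM (edgeR adjusted p = 0.000731 and 0.00774). *Pnpla8* was at -0.05 with library size alone (adjusted p = 0.718). *Pnpla3* and *Pnpla5* varied widely between mice, with 4 to 168 and 4 to 147 counts in control livers, and had log2 fold changes of 2.20 and -2.41 (adjusted p = 0.256 and 0.317). Without control replicate 1, which had the highest control count of each, *Pnpla3* was at 4.83 (edgeR adjusted p = 0.0207) and *Pnpla5* at 0.92 (adjusted p = 0.535). With limma-voom *Pnpla3* passed as higher, at 3.36 (adjusted p = 0.0370). *Pnpla1* had at most 3 counts in any library.

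The list of other α/β-hydrolases and thioesterases had 16 of 18 genes tested, with 9 lower and 2 higher (median log2 fold change -0.46). It also holds *Aspg* and *Faah*, hydrolases of other families, which were both among the 9 lower. *Mgll*, the monoacylglycerol lipase, fell from 202 ± 21.1 to 75.6 ± 17.7 CPM, *Aspg*, which has lysophospholipase activity, from 248.8 ± 43.1 to 127 ± 13.9 CPM, and *Abhd3* from 53.6 ± 3.68 to 31.0 ± 4.36 CPM (edgeR adjusted p = 0.000225, 0.000723 and 0.000726). *Mgll* and *Abhd6*, both monoacylglycerol lipases, were at log2 fold changes of -1.42 and -1.31; *Mgll* shares 167 exon bases with the antisense *Gm26588*. The 2 higher genes were *Ppt1*, the lysosomal palmitoyl-protein thioesterase, at 25.4 ± 3.49 and 37.7 ± 4.35 CPM (adjusted p = 0.00641), and *Abhd2*, at 88.7 ± 21.95 and 151 ± 35.9 CPM (adjusted p = 0.0264). *Abhd2* did not pass in 4 of the 6 fits that left out a mouse, with edgeR adjusted p between 0.0599 and 0.0878. *Ppt1* shares 129 exon bases with *Cap1* on the opposite strand, a gene with more counts. *Cap1* had 2091, 2417 and 2026 counts in control livers against 4032, 3769 and 4219 in livers of g*Spns1*-cKO mice. Since the strand setting of the counting is not given, reads in the overlap cannot be told apart.

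Phospholipases that produce lysophospholipids had 17 of 26 symbols tested, with 3 higher and 5 lower (median log2 fold change -0.09). *Lipg* and *Lipc*, the endothelial and hepatic lipases that act on lipoprotein phospholipid and triglyceride, fell from 28.8 ± 14.9 to 5.33 ± 1.67 CPM and from 147 ± 5.70 to 54.3 ± 15.2 CPM. *Pla2g6*, a calcium-independent phospholipase A2, fell from 68.3 ± 0.234 to 29.1 ± 2.90 CPM (edgeR adjusted p = 2.74e-05). *Pla2g7*, the secreted platelet-activating factor acetylhydrolase, rose from 2.46 ± 0.802 to 11.7 ± 0.957 CPM and *Pla2g4a*, the cytosolic phospholipase A2 that releases arachidonate, from 0.631 ± 0.0903 to 2.85 ± 0.308 CPM (adjusted p = 6.85e-05 and 0.000239). *Plbd2*, a lysosomal phospholipase B-like protein, had a log2 fold change of 0.49 (adjusted p = 0.0424), which was not past the threshold in 4 of the 6 fits without a mouse (adjusted p from 0.0828 to 0.134). *Plbd2* shares 360 exon bases with the abundant *Sds* on the opposite strand.

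The 2 lysoplasmalogenases, which remove the vinyl ether chain from lysoplasmalogens, went in opposite directions. *Tmem86a* rose from 9.68 ± 1.94 to 19.9 ± 2.13 CPM (edgeR adjusted p = 0.000779) and *Tmem86b* fell from 102 ± 6.14 to 46.6 ± 11.4 CPM (adjusted p = 0.000487). The list for use of free choline and glycerol-3-phosphate, the products of GPCPD1, had all 15 genes tested, with 2 higher and 5 lower (median log2 fold change 0.0091). *Chka*, choline kinase alpha, rose from 20.6 ± 0.701 to 60.0 ± 6.41 CPM, or 1.54 on the log2 scale (SE 0.11, edgeR adjusted p = 1.04e-05), and *Slc44a2*, a choline transporter-like gene, from 6.70 ± 0.556 to 15.1 ± 0.169 CPM (adjusted p = 0.000102). *Gpd1*, the cytosolic glycerol-3-phosphate dehydrogenase, fell from 463 ± 45.6 to 162 ± 23.3 CPM. *Gnmt* and *Sardh*, of methyl group metabolism in which betaine made from choline takes part, had log2 fold changes of -1.12 and -0.996 (edgeR adjusted p = 0.000268 and 0.000954).

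**Figure D5:**
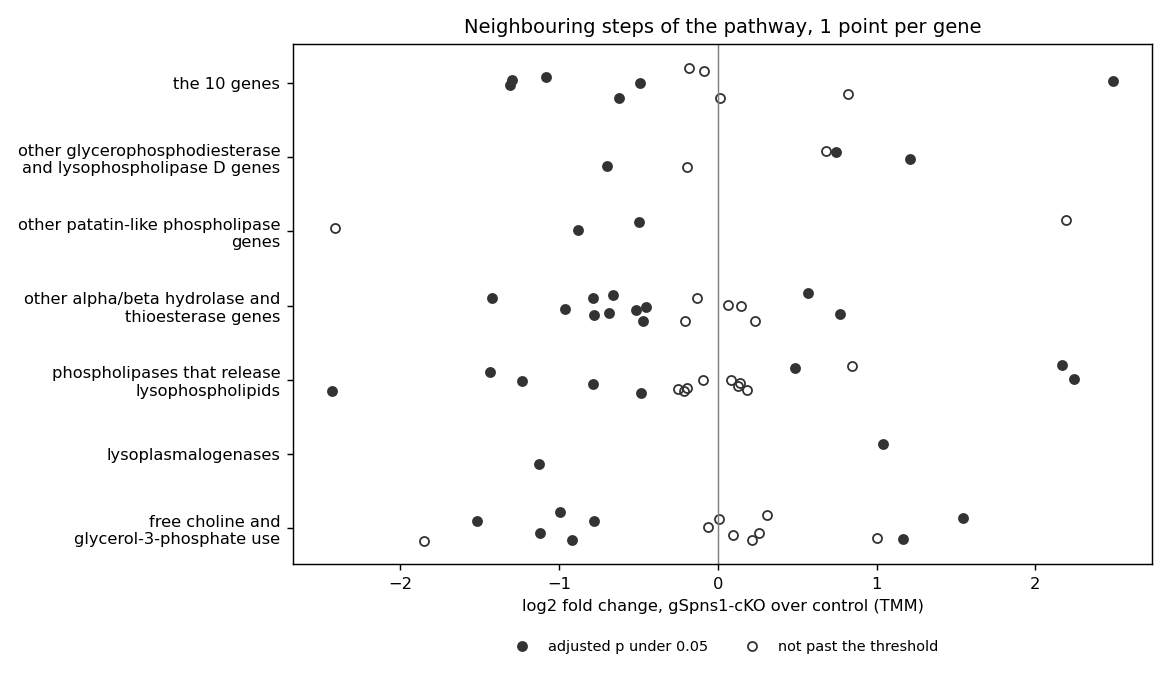
Log2 fold change (TMM scaling) of the 10 genes and of the tested genes in 6 lists of neighboring steps, 1 point per gene, filled where the edgeR adjusted p was under 0.05. The 10 genes range from -1.31 to 2.49. The list of other α/β-hydrolases and thioesterases, which also holds *Aspg* and *Faah*, has 9 filled points below 0 and 2 above.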

How the data were processed

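RNA of 6 mouse livers was sequenced by a commercial service, 1 library per mouse, after poly-A selection. Per the labels, reads were processed with fastp, aligned with HISAT2 2.0.5 to mm10 (GRCm38) and counted with featureCounts 1.5.0-p3; the strand setting is not given in the sources used here. The authors deposited whole-number counts per gene, FPKM values and gene lengths, and also their own group means, fold changes and p-values, which were not used. Of the deposited genes, 54495 were found in GENCODE M21, 98.3% of them with the same coordinates.

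Counts were tested in R 4.3.3 with edgeR 4.0.16 (filterByExpr, TMM, robust quasi-likelihood fit, no covariate, Benjamini-Hochberg adjustment over all genes tested, threshold 0.05). The standard error is the size of the log2 fold change over the square root of F. Promoter windows were taken from RefSeq. The edgeR p-values weigh the difference between groups against the spread between mice within a group. No pair of libraries of a group agreed within sampling noise (chi-square per gene between 38.8 and 114). DESeq2 1.42.0, limma-voom (limma 3.58.1), 3 other scalings, 2 other filters, a replicate block, stricter thresholds and leaving out each mouse were tried, and FPKM was used for ratios and levels only. The tests were also run on simulated counts with a fixed dispersion and few changed genes, balanced in direction. That simulation held no shift in scaling between the groups, so it cannot speak to the scaling differences described here. The genes, lists and alternatives were chosen with earlier results of these data known. The genes named are the 10 members, *Spns1*, up to 3 most changed genes past the threshold in each direction of each list (every member of lists of 5 or fewer), and the 3 genes most alike in pattern to the most changed and to the most abundant member. Genes sharing exons with a member were named by the same rule, those sharing exons with other named genes after their values were seen. *Faah* was named for its enzyme family.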

Additional observations from a re-analysis of the deposited data

How the results depend on the processing

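The 5 lower calls and the 1 higher call among the 10 genes were found again, in number, under upper-quartile scaling, DESeq2 size factors, DESeq2, limma-voom, both filters on low counts, the threshold of 0.01 and each fit without a mouse (between 5 and 5 lower and between 1 and 1 higher). With library size alone they were 3 higher and 3 lower, and with a limit of 2-fold 3 were lower. Over all genes, library size alone gave 7289 higher and 970 lower, the threshold of 0.01 gave 1983 and 1907, and the limit of 2-fold gave 1952 and 817, compared with 3286 and 3166. Upper-quartile scaling gave 4111 and 2240. For the other pathway genes, library size alone gave 25 higher and 13 lower and the limit of 2-fold 6 and 7. The sign of *Lyplal1* turned to 0.36 with library size alone and 0.0412 with upper-quartile scaling, and that of *Abhd12* to 0.26 with library size alone. Without a mouse, *Pnpla6* was between -0.0675 and 0.0848 and *Pnpla5* between -3.57 and 0.92. *Spns1* lost its call with library size alone and with upper-quartile scaling. The cause of the scaling difference was not tested. The replicate numbers did not pair the libraries: same-numbered libraries had correlations of deviations of 0.037, 0.033 and -0.028. A fit with the replicate block called 3084 genes higher and 3016 lower, with 1 and 5 of the 10 genes. Control livers gave at least 8 of 10 genes the same rank in level without a mouse. At a depth of 3 to 27 counts, the direction of *Gdpd3* could not be settled.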
